A study of Rattus norvegicus with 18 samples.

Results

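Tubular injury marker genes are transcripts that kidney tubule cells make, or make more of, after damage. The set described here holds 8 of the 32116 genes in the deposited rat table, chosen by symbol: Havcr1, Lcn2, Clu, Vcam1, Cp, Cryab, Prom1 and Dcdc2. Each symbol matched 1 row. Kidney RNA was sequenced in 18 libraries from 3 groups of 6: SZ rats, which received both adenine (100 mg/kg/day) and SZ-A (300 mg/kg/day), CKD rats, which received adenine alone (100 mg/kg/day), and untreated NC rats. Adenine overload is a common way to produce chronic kidney disease in rodents. For SZ-A's nature, the dosing period, the part of kidney and the strain, age and sex, no information is given in the sources used here. Whether libraries of a group stem from different animals is not stated in the labels, so p-values measure the spread between libraries, which may be technical.

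A damaged proximal tubule cell loses its transport programme, flattens, and switches on genes for clearing dead neighbours, binding iron and chaperoning unfolded protein. Most such cells recover, but some stay in a state marked in mouse and human kidney by Vcam1 and Dcdc2 (Dcdc2a in the mouse). Havcr1 (KIM-1) is a phosphatidylserine receptor by which tubule cells engulf apoptotic debris, and Lcn2 (NGAL) is a secreted protein that binds iron-carrying siderophores. Clu (clusterin) is a secreted chaperone, Cp (ceruloplasmin) a copper enzyme that oxidises iron, Cryab (alpha B crystallin) a small heat shock protein, and Prom1 (prominin 1, CD133) a membrane protein of cell protrusions that marks scattered tubule cells. In bulk RNA, fewer cells of a type and less RNA per cell cannot be told apart.

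Of the 8 members, 6 were higher in CKD than in NC kidneys (Havcr1, Lcn2, Clu, Cp, Dcdc2 and Vcam1), and the same 6 were higher in SZ than in NC kidneys. Cryab and Prom1 passed the test in neither comparison. Between SZ and CKD kidneys limma called 0 of the 8, with Lcn2 and Cp lower in SZ and Prom1 higher at an unadjusted p under 0.05. Called here means an adjusted p under 0.05 over all 13851 genes tested. Of all these genes, 50.3% were called in CKD against NC (24.4% higher) and 21.1% in SZ against NC (12.5% higher). In SZ against CKD 11% were called, and 29% had an unadjusted p under 0.05, against 37.5% of the members. The Vcam1 call in SZ against NC was lost in 10 of 34 alternative settings.

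Promoter sequences are shown for 5 of the 6 members that were higher in CKD, because these are the stretches of DNA from which their transcripts start. RefSeq's promoter table (build GRCr8) had an entry for 6 of the 8 members, and Clu and Cryab are named only. Each line runs 5′ to 3′ from 250 bases before the gene's start to 50 after it, with matches to any of 6 motifs in capitals on either strand.
Havcr1, chr10:31629528-31629827, plus strand: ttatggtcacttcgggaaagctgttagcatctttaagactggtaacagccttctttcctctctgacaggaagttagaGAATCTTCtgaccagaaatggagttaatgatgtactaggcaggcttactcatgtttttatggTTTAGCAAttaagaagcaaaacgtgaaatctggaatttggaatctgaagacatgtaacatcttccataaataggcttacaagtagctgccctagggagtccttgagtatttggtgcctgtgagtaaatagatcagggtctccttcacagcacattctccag
Lcn2, chr3:36081731-36082030, minus strand: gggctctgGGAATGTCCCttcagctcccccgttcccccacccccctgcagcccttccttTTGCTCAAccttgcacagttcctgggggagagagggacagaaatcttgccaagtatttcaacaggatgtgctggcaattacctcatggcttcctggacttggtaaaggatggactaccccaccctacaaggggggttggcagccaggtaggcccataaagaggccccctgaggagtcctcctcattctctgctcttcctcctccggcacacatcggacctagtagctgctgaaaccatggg
Vcam1, chr2:206742734-206743033, minus strand: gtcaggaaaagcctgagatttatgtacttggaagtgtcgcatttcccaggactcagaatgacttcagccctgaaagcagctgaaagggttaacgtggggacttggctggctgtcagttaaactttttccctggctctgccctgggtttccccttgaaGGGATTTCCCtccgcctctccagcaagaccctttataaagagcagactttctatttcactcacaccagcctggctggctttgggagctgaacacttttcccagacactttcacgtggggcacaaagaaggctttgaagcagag
Cp, chr2:104368420-104368719, plus strand: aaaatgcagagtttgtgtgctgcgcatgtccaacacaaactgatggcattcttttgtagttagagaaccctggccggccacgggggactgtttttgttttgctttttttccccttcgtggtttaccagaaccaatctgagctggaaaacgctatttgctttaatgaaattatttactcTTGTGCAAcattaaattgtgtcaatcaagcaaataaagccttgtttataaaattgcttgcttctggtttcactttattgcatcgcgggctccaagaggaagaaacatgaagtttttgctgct
Dcdc2, chr17:40458741-40459040, minus strand: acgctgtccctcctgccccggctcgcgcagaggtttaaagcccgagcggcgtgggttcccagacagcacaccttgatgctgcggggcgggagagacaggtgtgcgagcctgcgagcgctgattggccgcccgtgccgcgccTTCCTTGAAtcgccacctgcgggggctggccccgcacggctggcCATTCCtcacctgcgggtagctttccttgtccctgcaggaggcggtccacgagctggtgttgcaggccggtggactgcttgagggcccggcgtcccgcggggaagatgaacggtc
The motifs were the NF-kB consensus, AP-1 (TGANTCA), STAT (TTCNNNGAA), a heat shock half-site pair (GAANNTTC), C/EBP (TTGCNNAA) and TEAD (GGAATG). The NF-kB consensus matched in Lcn2, beginning at position -242 from the start, and in Vcam1 at position -93, against 4.18% of the 33469 promoters in the table. In Lcn2 a TEAD match overlaps it from the same base. The C/EBP motif matched in Havcr1, Lcn2 and Cp, against 10.6% of all promoters. Dcdc2 held a STAT match (8.87% of all promoters) and a TEAD match (14.2%), Havcr1 a heat shock match (8.59%), and Prom1 an AP-1 match (7.33%). Prom1 had more than 1 entry: the match lay in chr14:71211389-71211688, while chr14:71202395-71202694 held no match. These shares are per entry, so a gene with more entries has more room for a match. A match describes letters in a window and was not linked to the values that follow.

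Values are FPKM, fragments scaled by the authors to gene length and library size, so levels can be compared between genes. In NC kidneys Cryab had the highest mean level of the 8 (89.2 FPKM, SD 68.0, n = 6) and Havcr1 the lowest (0.680 FPKM, SD 0.434, n = 6). In SZ and CKD kidneys Clu stood first and Havcr1 second, while Vcam1 stood last. Recovered totals were 15354358 to 18532375 reads per library. In NC kidneys Havcr1 rested on 4 to 33 reads per library and Lcn2 on 13 to 58. Havcr1 and Lcn2 met the filter for testing (FPKM of at least 1 in at least 6 libraries) only through the adenine groups, since 3 and 5 of the 6 NC libraries reached 1 FPKM. The other 6 members reached it in every library.

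**Figure D1:**
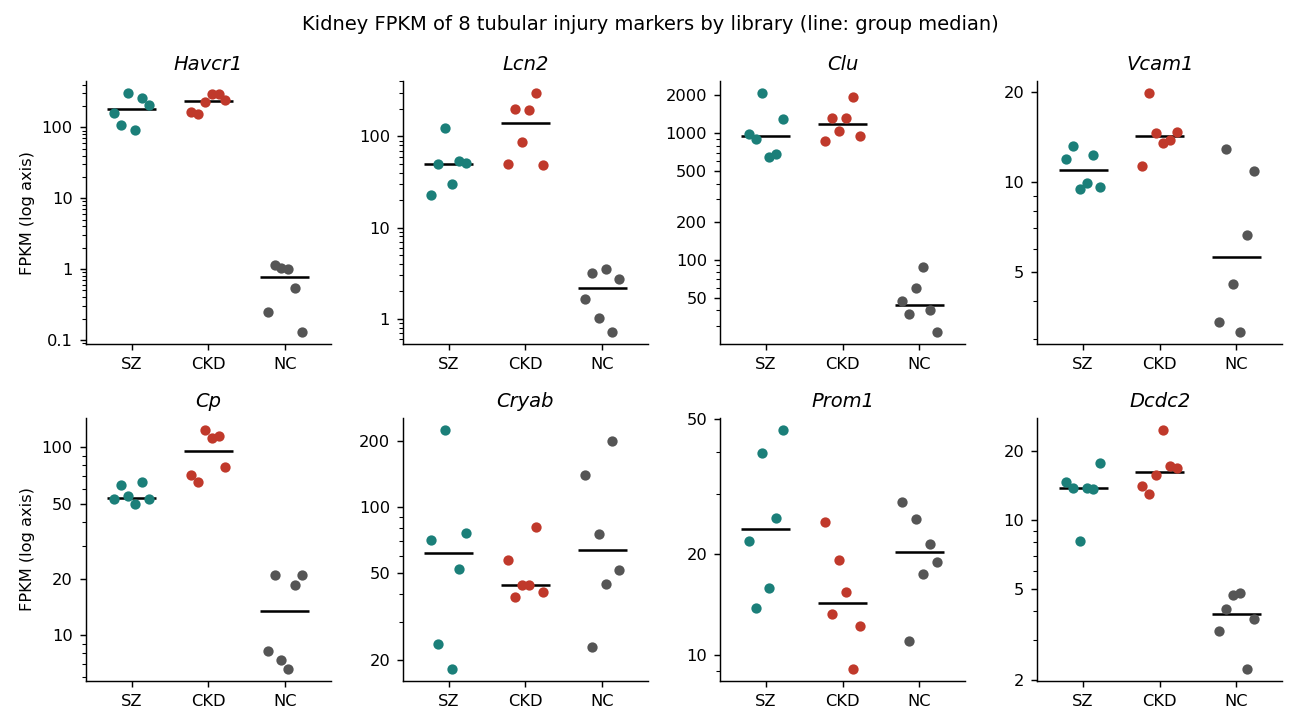
FPKM of each member on a log axis in the 6 libraries of the SZ, CKD and NC groups, 1 point per library with a line at the group median. Havcr1, Lcn2, Clu, Cp and Dcdc2 show NC libraries apart from both adenine groups, while the 3 groups overlap for Cryab and Prom1.

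In 3 libraries values stood apart in how they followed gene length, with slopes of -0.31 in CKD 5, -0.25 in SZ 3 and -0.21 in CKD 2 (log2 units per doubling of gene length, relative to the mean of the 18 libraries), against -0.10 in CKD 1 and 0.011 to 0.11 in the rest. Results are therefore also given without them where this changes a call. The share of reads on rRNA genes outside the mitochondrial genome was 1741 ppm in CKD 5, 809 ppm in CKD 6 and 65.8 to 248 ppm in the other libraries. Mitochondrial genes took 14.0% of reads on average in SZ, 10.3% in CKD and 19.4% in NC. Proximal tubule markers were present in every library (summed FPKM of 10 genes 2216 to 3064 in SZ, 655 to 2008 in CKD and 3704 to 5102 in NC). Liver markers summed to 2.68 FPKM or less and urothelium markers to 0.698 FPKM or less in every library.

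The comparison of CKD with NC asks what adenine did to these genes. It called 50.3% of all tested genes in either direction, 24.4% higher and 26% lower. Under scaling to a fixed FPKM sum the median log2 fold change over all genes was 0.34, against -0.040 as deposited. The calls then split into 6591 higher and 1281 lower, against 3378 and 3595 as deposited. Of the members 75% were called, each of them higher, under both scalings. At an unadjusted p under 0.05 there were 6 of 8, against 56.8% of all genes tested. The group ranges were apart for 5 of 8 members, against 26.5% of all tested genes. The median log2 fold change was 2.35 over the members and -0.040 over all genes tested.

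Havcr1, on chromosome 10 (31119088 to 31151698, plus strand, mRatBN7.2), ran from 155 to 295 FPKM with a median of 236 in CKD kidneys, against 0.128 to 1.13 FPKM with a median of 0.775 in NC kidneys. Every CKD library was above every NC library, with CKD 2 and CKD 1 the lowest of their group. The log2 fold change was 7.10 (SE 0.27, limma adjusted p = 5.7e-12), the largest of the 13851 genes tested. This scale adds 1 to each FPKM and understates the change of a gene near 0: the ratio of the 2 group means was 338, and voom on the recovered reads gave 8.68.

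Lcn2, on chromosome 3 (15680687 to 15684095, minus strand), ran from 48.4 to 299 FPKM with a median of 140 in CKD kidneys, against 0.714 to 3.5 FPKM with a median of 2.19 in NC kidneys. The groups did not overlap, but the CKD libraries were spread: CKD 5, CKD 2 and CKD 4 stood at 299, 200 and 193 FPKM, and CKD 3, CKD 1 and CKD 6 at 87.4, 50.4 and 48.4. The log2 fold change was 5.32 (SE 0.45, adjusted p = 6.3e-08), number 4 among all genes tested by size. Neutrophils store the Lcn2 protein in their granules, so their markers are given beside it. The summed FPKM of 10 neutrophil genes was 5.96 to 28.7 in CKD and 1.08 to 7.81 in NC libraries. It was highest in CKD 2 (28.7) and CKD 5 (26.6). CKD 4 had 12.75, CKD 3 10.6, CKD 6 9.525 and CKD 1 5.96. The granule genes were low: Ngp averaged 0.251 FPKM in CKD and 0.029 in NC, Mmp8 0.207 and 0.125, Camp 0.201 and 0.076, Elane 0.056 and 0, Ltf 0.034 and 0.016, and Mpo 0.014 and 0.0046. Of the neutrophil genes 3 of 3 tested (S100a8, S100a9 and Csf3r) were higher in CKD. Their part in the Lcn2 result was not tested.

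Clu, on chromosome 15 (40174617 to 40200315, plus strand), was the most abundant member in both adenine groups. It ran from 878 to 1933 FPKM with a median of 1182 in CKD kidneys, against 26.6 to 87.8 FPKM with a median of 43.5 in NC kidneys. The lowest CKD library stood above every NC library. The log2 fold change was 4.67 (SE 0.30, adjusted p = 4.4e-09), number 8 of all genes tested by size.

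Cp, on chromosome 2 (102439624 to 102498075, plus strand), ran from 65.4 to 124 FPKM with a median of 94.9 in CKD kidneys, against 6.62 to 21.0 FPKM with a median of 13.4 in NC kidneys. The groups did not overlap, and the NC libraries fell into a higher trio (NC 2, NC 6 and NC 5 at 21.0, 20.9 and 18.6 FPKM) and a lower one (NC 1, NC 3 and NC 4 at 8.29, 7.39 and 6.62). In log2 units the difference was 2.79 (SE 0.26, adjusted p = 1.8e-07).

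Vcam1, the adhesion protein that leukocytes bind through integrins, lies on chromosome 2 (204038114 to 204057958, minus strand). It ran from 11.4 to 19.9 FPKM with a median of 14.2 in CKD kidneys, against 3.15 to 12.9 FPKM with a median of 5.63 in NC kidneys. The groups overlapped, since NC 2 (12.9 FPKM) stood above CKD 1 (11.4), while 5 of 6 CKD libraries were above every NC library. The fold change on the log2 scale was 1.12 (SE 0.25, adjusted p = 0.0010). The same NC libraries that were high for Cp were high for Vcam1 (12.9, 10.9 and 6.68 FPKM in NC 2, NC 6 and NC 5, against 3.15 to 4.58 in the other 3). Endothelium and activated fibroblasts also make Vcam1. Summed over 8 fibroblast and mural genes, NC 2, NC 6 and NC 5 had 141, 119 and 87.8 FPKM, and NC 3, NC 4 and NC 1 had 74.0, 67.3 and 67.0. Of these genes 7 of 7 tested were higher in CKD than in NC, whereas 0 of 9 tested endothelial genes were higher and 4 lower, with sums of 165 to 208 FPKM in CKD and 186 to 247 in NC. The direction of the endothelial list turned with scaling, to 3 higher and 1 lower under a fixed FPKM sum. Within NC, the macrophage sums were also highest in NC 2, NC 6 and NC 5 (216, 202 and 199.5 FPKM, next NC 4 at 195). The T cell sums had the same order (4.84, 4.38 and 3.58 FPKM, next NC 1 at 3.25). The endothelial sum did not (220 FPKM in NC 3, against 187 in NC 5), nor did the neutrophil sum, highest in NC 4 (7.81). The part of these cell types in the Vcam1 and Cp results was not tested.

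Dcdc2, a microtubule-binding protein of the primary cilium on chromosome 17 (39845952 to 40030743, minus strand), ran from 13.0 to 24.8 FPKM with a median of 16.3 in CKD kidneys, against 2.24 to 4.79 FPKM with a median of 3.91 in NC kidneys. Its groups did not overlap, and CKD 4 (24.8 FPKM) stood well above CKD 5 (17.3), the next library. The log2 ratio came to 1.90 (SE 0.18, adjusted p = 1.8e-07).

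Prom1, on chromosome 14 (66990160 to 67094527, plus strand), ran from 9.12 to 24.9 FPKM with a median of 14.3 in CKD kidneys, against 11.01 to 28.5 FPKM with a median of 20.2 in NC kidneys. The ranges overlapped, with 1 CKD library (CKD 5) below every NC library. In log2 units the difference was -0.37 (SE 0.29, adjusted p = 0.29), with a 95% interval from -0.98 to 0.23, and its sign turned under scaling to a fixed FPKM sum (0.058).

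Cryab, on chromosome 8 (51093441 to 51099157, plus strand), ran from 39.03 to 81.5 FPKM with a median of 44.3 in CKD kidneys, against 22.9 to 201 FPKM with a median of 63.4 in NC kidneys. Every CKD value lay within the NC range, and NC 5 and NC 1 (201 and 141 FPKM) were the highest. The fold change on the log2 scale was -0.49 (SE 0.53, adjusted p = 0.46), with a 95% interval from -1.59 to 0.62.

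**Figure D2:**
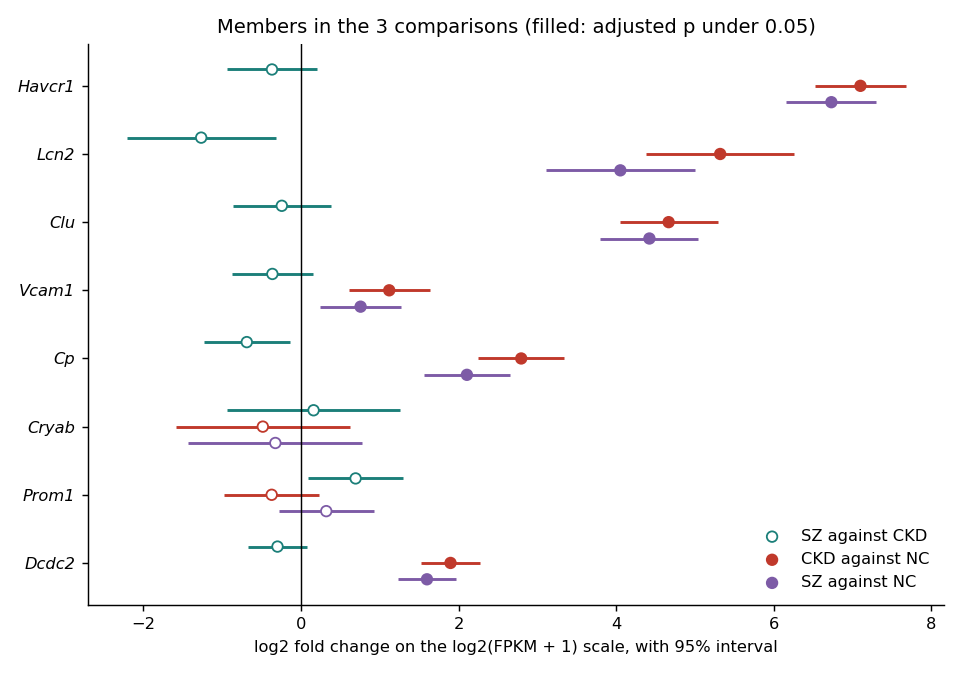
Log2 fold change of each member on the log2(FPKM + 1) scale with its unadjusted 95% interval, for SZ against CKD, CKD against NC and SZ against NC (n = 6 libraries per group), filled where the adjusted p was under 0.05. No SZ against CKD point is filled, although the intervals of Lcn2, Cp and Prom1 leave out 0.

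Setting SZ against CKD asks what changed when SZ-A was given with adenine. The test called 11% of all tested genes (576 or 4.16% higher, 945 or 6.82% lower, against 289 higher and 1702 lower under scaling to a fixed FPKM sum), and 0 of the 8 members. At an unadjusted p under 0.05 there were 3 members (37.5%), against 29% of all genes tested. Voom on the recovered reads called 0 members and a fit of only these 2 groups called 1. The exact rank sum test could call none of them: it called 0 of the 13851 genes, and Cp, with ranges apart and so the smallest p this test allows, had an adjusted p of 0.096. The members' median log2 fold change was -0.33, against 0.0055 over all genes.

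Havcr1 ran from 92.5 to 305 FPKM with a median of 183 in SZ kidneys, against 155 to 295 FPKM with a median of 236 in CKD kidneys. The ranges overlapped, with SZ 4 and SZ 2 (92.5 and 106 FPKM) below every CKD library and SZ 3 (305) above every one. The log2 ratio came to -0.37 (SE 0.27, adjusted p = 0.38), and its 95% interval ran from -0.94 to 0.20. Clu likewise ran from 648 to 2088 FPKM with a median of 949 in SZ kidneys, against 878 to 1933 FPKM with a median of 1182 in CKD kidneys. Its SZ libraries lay on both sides of the CKD range, SZ 4 and SZ 5 below it and SZ 3 above it. The log2 fold change of Clu was -0.24 (SE 0.30, adjusted p = 0.60, 95% interval -0.87 to 0.38).

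Lcn2 ran from 22.9 to 125 FPKM with a median of 50.1 in SZ kidneys, against 48.4 to 299 FPKM with a median of 140 in CKD kidneys. All 6 SZ libraries lay below the CKD median, and SZ 1 and SZ 4 below every CKD library. In log2 units the difference was -1.27 (SE 0.45, adjusted p = 0.072, 95% interval -2.21 to -0.32), number 97 of the 13851 from the bottom. Single libraries decided the call: without SZ 3 it was -1.54 (adjusted p = 0.021), without CKD 1 -1.505 (0.025) and without CKD 6 -1.52 (0.038). It also passed under scaling to a fixed FPKM sum (-1.41, adjusted p = 0.041) and to plain library totals (-1.40, 0.048). The median log2 fold change over all genes was -0.12 and -0.10 under these 2 scalings, against 0.0055 as deposited. The neutrophil sum was 4.44 to 10.5 FPKM in SZ and 5.96 to 28.7 in CKD libraries, and 1 of 3 tested neutrophil genes, Csf3r, fell as deposited. Under the 2 scalings by which Lcn2 passed, 3 of 3 neutrophil genes (fixed FPKM sum) and 2 of 3 (plain totals) fell. The part of neutrophil RNA in this difference was not tested.

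Cp ran from 49.9 to 65.36 FPKM with a median of 54.0 in SZ kidneys, against 65.37 to 124 FPKM with a median of 94.9 in CKD kidneys. It was the only member whose SZ and CKD ranges were apart, by a margin of the second decimal between SZ 5 and CKD 2, and 2.26% of all tested genes had ranges apart. The fold change on the log2 scale was -0.69 (SE 0.26, adjusted p = 0.089, 95% interval -1.24 to -0.14), and the adjusted p was 0.042 when only the 2 groups were fitted. The SZ libraries were close together (SD 6.27 FPKM, against 25.5 in CKD).

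Vcam1 ran from 9.50 to 13.3 FPKM with a median of 10.95 in SZ kidneys, against 11.4 to 19.9 FPKM with a median of 14.2 in CKD kidneys. Dcdc2 ran from 8.14 to 17.7 FPKM with a median of 13.8 in SZ kidneys, against 13.0 to 24.8 FPKM with a median of 16.3 in CKD kidneys. For Vcam1 all 6 SZ libraries lay below the CKD median and 3 below every CKD library, while for Dcdc2 5 of 6 lay below the median and SZ 3 below every CKD library. Neither passed: the log2 fold change was -0.36 for Vcam1 (SE 0.25, adjusted p = 0.34, 95% interval -0.88 to 0.15) and -0.30 for Dcdc2 (SE 0.18, adjusted p = 0.27, 95% interval -0.67 to 0.071).

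Prom1 was the member with the largest positive difference, from 13.8 to 46.6 FPKM with a median of 23.7 in SZ kidneys, against 9.12 to 24.9 FPKM with a median of 14.3 in CKD kidneys. SZ 6, SZ 3 and SZ 5 (46.6, 39.7 and 25.5 FPKM) were above every CKD library, and the other 3 lay within the CKD range. The log2 ratio came to 0.69 (SE 0.29, adjusted p = 0.12, 95% interval 0.089 to 1.30). Cryab ran from 18.3 to 225 FPKM with a median of 61.7 in SZ kidneys, against 39.03 to 81.5 FPKM with a median of 44.3 in CKD kidneys. Cryab in SZ kidneys was spread, with SZ 3 far above the rest (225 FPKM, next SZ 6 at 76.0) and SZ 4 and SZ 2 below every CKD library. Its log2 fold change was 0.16 (SE 0.53, adjusted p = 0.87) and took the other sign without SZ 3 (-0.24).

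**Figure D3:**
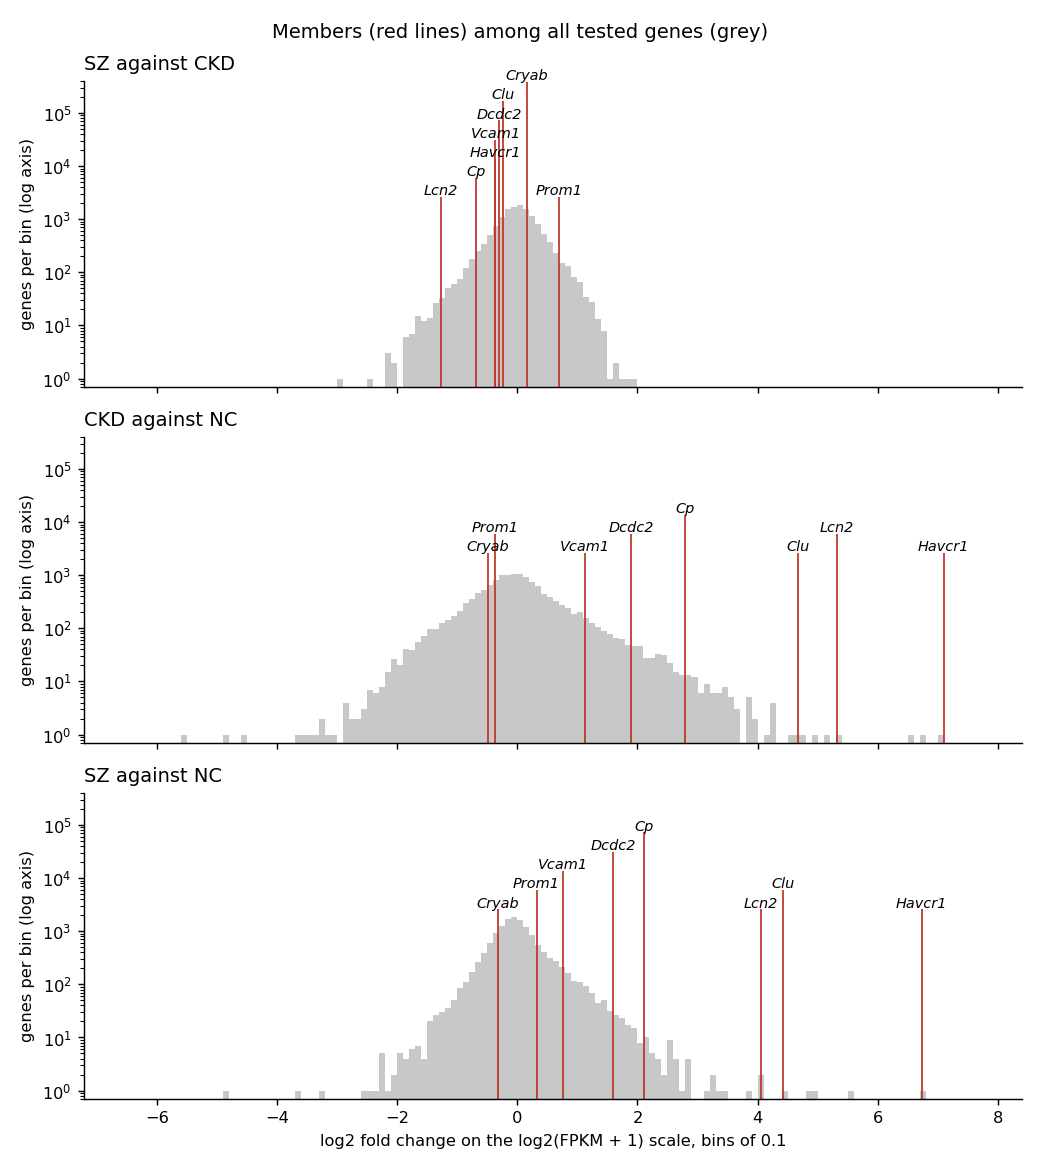
Log2 fold change of the 13851 tested genes (grey, number of genes per bin of 0.1 on a log axis) with the 8 members as labelled red lines, in SZ against CKD, CKD against NC and SZ against NC. Havcr1 lies at the far right end of both comparisons with NC, whereas in SZ against CKD Lcn2 lies farthest left of the members, at -1.27 (number 97 from the bottom), Cp at -0.69 (number 634 from the bottom) and Prom1 farthest right, at 0.69 (number 523 from the top).

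The comparison of SZ with NC asks what was still different from untreated kidneys in rats given both compounds. It shares its NC libraries with the adenine comparison and its SZ libraries with the SZ-A comparison. It called 21.1% of all tested genes, 1726 (12.5%) higher and 1193 (8.61%) lower, against 3432 and 266 under scaling to a fixed FPKM sum. It called 6 of 8 members (75%), each higher. At an unadjusted p under 0.05 there were 6 of 8, against 34.2% of all genes. Ranges were apart for 5 of 8 members and for 14.6% of all tested genes. Havcr1 again had the largest log2 fold change of all genes tested (6.73, SE 0.27, adjusted p = 1.5e-11). Clu was number 5 (4.42, SE 0.30, adjusted p = 1.9e-08) and Lcn2 number 7 (4.05, SE 0.45, adjusted p = 8.5e-06). Cp and Dcdc2 were higher by 2.11 (SE 0.26, adjusted p = 2.3e-05) and 1.598 (SE 0.18, adjusted p = 8.3e-06). For Havcr1, Lcn2, Clu, Cp and Dcdc2 every SZ library lay above every NC library.

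Vcam1 was called in SZ against NC at 0.76 log2 units (SE 0.25, adjusted p = 0.035), with 1 of 6 SZ libraries above every NC library. The call was lost without SZ 1, SZ 2 or SZ 5 (adjusted p = 0.064, 0.069 and 0.070) and without NC 1, NC 3, NC 4 or NC 5 (0.089, 0.079, 0.088 and 0.051). It was also lost with no filter on low values (0.062), with only the 2 groups fitted (0.054) and by the exact rank sum test (0.25). Prom1 (0.32, SE 0.29, adjusted p = 0.46, 95% interval -0.28 to 0.92) and Cryab (-0.33, SE 0.53, adjusted p = 0.70, 95% interval -1.43 to 0.78) did not pass.

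By mean FPKM, Havcr1, Lcn2, Clu, Vcam1, Cp and Dcdc2 were highest in CKD, next in SZ and lowest in NC, with the neighbours SZ and CKD not separated by the test. For Prom1 and Cryab no pair of groups passed, and no order is given.

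Libraries, too, differed in which members they held high. SZ 3 was the highest of its group for 4 of 8 members (Havcr1, Lcn2, Clu and Cryab) and the lowest for Vcam1 and Dcdc2. The 4 are the members with the shortest genes in the table (1961, 1133, 2221 and 964 bases), while Vcam1 and Dcdc2 have 3690 and 6823 bases. Relative to the median of the other 5 SZ libraries, SZ 3 stood at 2.09 log2 units for Cryab, 1.33 for Lcn2 and 1.20 for Clu, and at -0.70 for Dcdc2. After a lowess correction for gene length these differences were 1.66, 0.98, 1.04 and -0.29. Prom1, with 4785 bases, moved the other way, at 0.83 as deposited and 1.09 after correction. CKD 5 was the highest of its group for Lcn2, Clu and Cryab, and the correction moved members both ways. In CKD 5 the difference was 0.40 after correction, against 0.87 as deposited, for Cryab, but 0.73, against 0.55, for Cp and 0.44, against 0.13, for Dcdc2. In CKD 2 it grew in size for Havcr1 (-0.82 after correction, -0.65 as deposited) and for Cryab (-0.62 after correction, -0.18 as deposited). It shrank in CKD 2 for Lcn2 (0.86, against 1.19 as deposited), Clu (0.22, against 0.36) and Cp (-0.60, against -0.76). The same held for Prom1 (0.042, against -0.20) and Dcdc2 (-0.057, against -0.35), while Vcam1 hardly moved (0.499, against 0.491). SZ 4 was the lowest of its group for 4 members (Havcr1, Clu, Cp and Cryab) and had a slope of 0.11. With the correction applied to every library, and also without CKD 2, CKD 5 and SZ 3, the counts of members called were 0 in SZ against CKD and 6 in each comparison with NC.

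**Figure D4:**
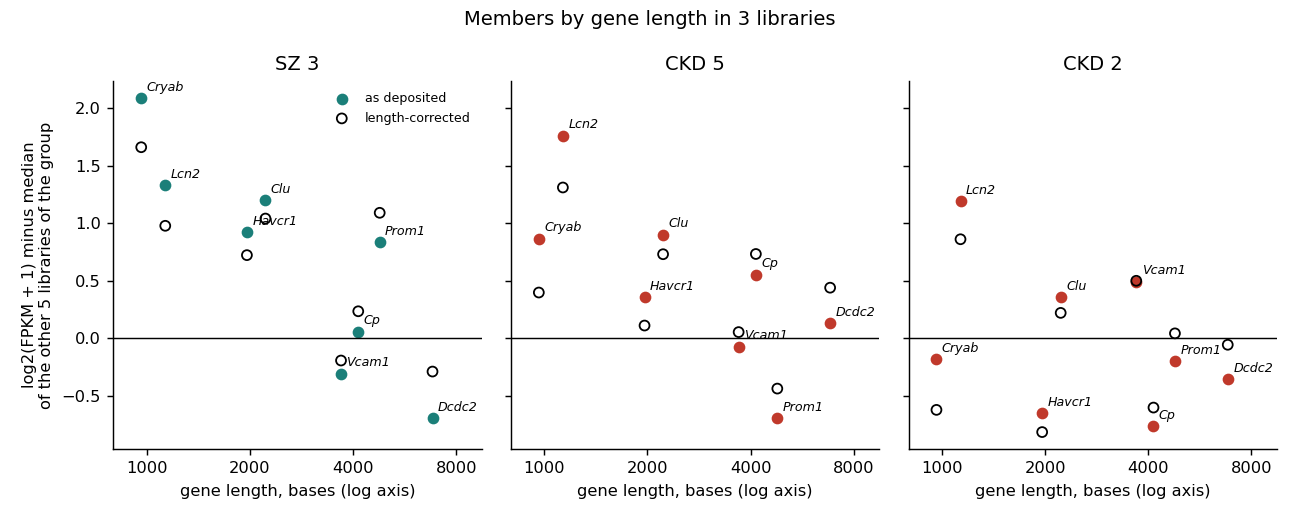
Difference of SZ 3, CKD 5 and CKD 2 from the median of the other 5 libraries of the group, in log2(FPKM + 1), against the member's gene length on a log axis, as deposited (filled) and after the lowess correction for gene length (open). In SZ 3 the short genes Cryab and Lcn2 lie at 2.09 and 1.33 and the long gene Dcdc2 at -0.70, and the correction brings all of these nearer to 0.

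Among 50 other genes linked to tubular injury and repair, 47 were matched and 45 tested. In CKD against NC 35 of 45 rose and 1 fell, with a median log2 fold change of 1.59 (all genes -0.040). Of all genes tested in this comparison, 24.4% were called higher and 26% lower. In the same comparison 10 of 10 macrophage genes were higher (median 2.85, summed FPKM 1058 to 2232 in CKD and 113 to 216 in NC), as were 5 of 5 T cell genes (median 1.37) and 7 of 7 fibroblast and mural genes (median 2.54). Their part in the count was not tested. The largest rises were in Spp1 (osteopontin, 6.55, SE 0.35), Timp1 (a metalloproteinase inhibitor, 4.23, SE 0.28) and Socs3 (a brake on cytokine signalling, 3.96, SE 0.27). At the other end were Pax2, a transcription factor of the developing kidney, which fell (-0.75, SE 0.25, adjusted p = 0.018), and the small rises of the lipid droplet gene Plin2 (0.47, SE 0.14) and Igfbp7 (0.53, SE 0.18). In SZ against NC 31 of 45 were higher and 0 lower, with a median of 1.00. The shares over all genes tested were 12.5% higher and 8.61% lower. Under scaling to a fixed FPKM sum the counts were 38 higher and 0 lower in CKD against NC, where Pax2 no longer passed. Over all 13851 genes that scaling called 6591 higher and 1281 lower in this comparison.

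In SZ against CKD 12 of these 45 genes fell and 0 rose, against 6.82% lower and 4.16% higher of all genes tested. The median log2 fold change was -0.46 (all genes 0.0055). Under scaling to a fixed FPKM sum, 1702 of all 13851 genes were lower and 289 higher. With that scaling 18 of these 45 genes fell and 0 rose. The largest falls were in Mmp7, a secreted matrix metalloproteinase (3.01 FPKM in SZ and 13.3 in CKD, listed at 0 in NC, log2 fold change -1.65, SE 0.39, adjusted p = 0.015), Vim (vimentin, 122 FPKM in SZ and 380 in CKD, -1.61, SE 0.25, adjusted p = 0.0024) and the neutrophil chemokine Cxcl1 (1.74 FPKM in SZ and 5.38 in CKD, -1.21, SE 0.27, adjusted p = 0.011). The smallest were in Krt8 (keratin 8, -0.46, SE 0.14, adjusted p = 0.046), Anxa2 (annexin A2, -0.73, SE 0.18, adjusted p = 0.018) and Cd44 (a hyaluronan receptor, -0.84, SE 0.20, adjusted p = 0.016). Fibroblasts and leukocytes also express several of these genes, Vim and Cd44 among them. Macrophage markers fell in the same comparison (9 of 10, summed FPKM 437 to 965 in SZ and 1058 to 2232 in CKD), as did 2 of 7 fibroblast and mural genes and 2 of 5 T cell genes. Under a fixed FPKM sum these counts were 10 of 10, 4 of 7 and 3 of 5. Their part in the counts of injury genes was not tested.

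**Figure D5:**
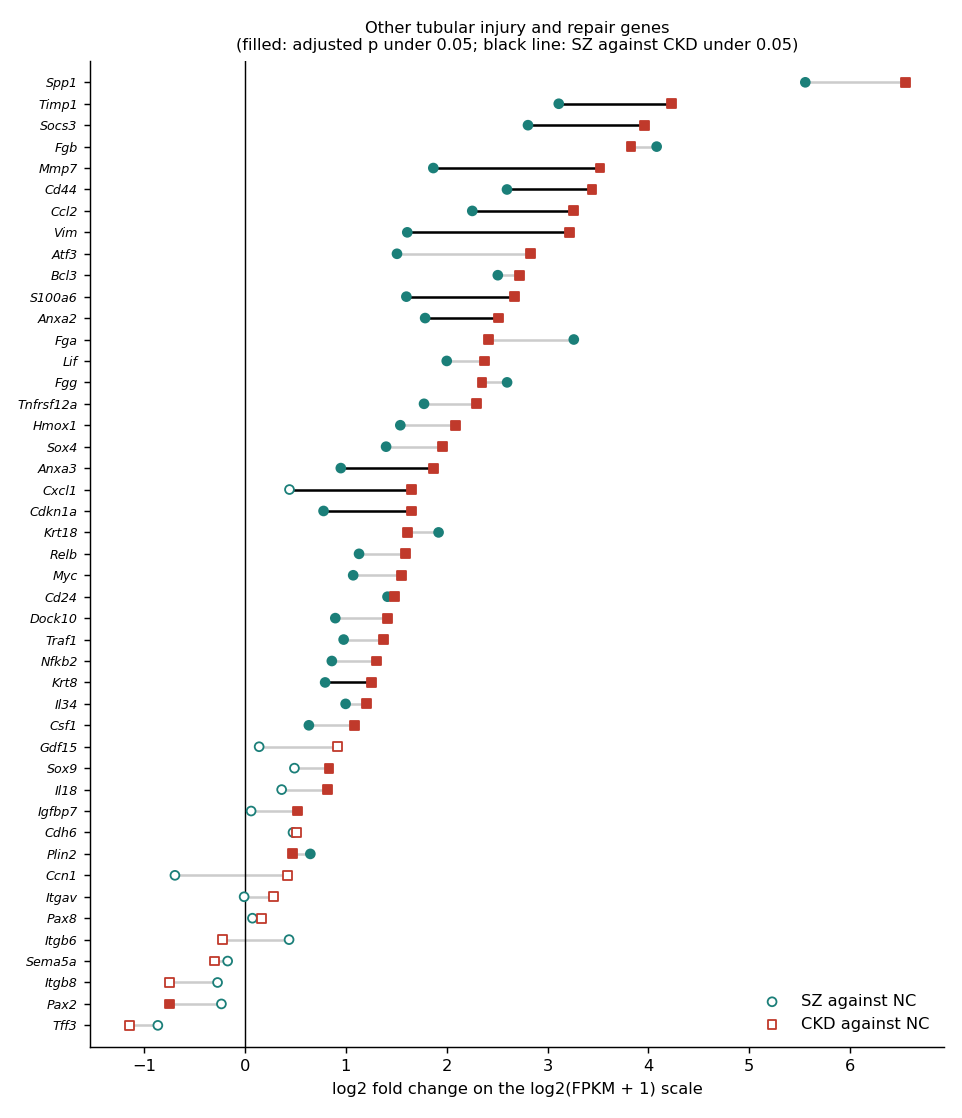
Log2 fold changes on the log2(FPKM + 1) scale of the 45 tested genes of the other injury and repair list, for SZ against NC (circles) and CKD against NC (squares), filled where the adjusted p was under 0.05 and joined by a black line where SZ against CKD passed. Of these genes 35 rose in CKD against NC, and 12 have a black line, each with SZ below CKD.

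Markers of the tubule cells themselves were measured in the same libraries. Of 10 proximal tubule genes, 6 were higher in SZ than in CKD (median log2 fold change 0.94), 9 were lower in CKD than in NC (median -1.43), and 0 of 10 passed in SZ against NC (median -0.48). Lrp2 (megalin), an endocytic receptor of the proximal tubule that takes up filtered Lcn2 and clusterin, averaged 132 FPKM in SZ, 63.1 in CKD and 174 in NC. It was higher in SZ than in CKD (1.09, SE 0.25, adjusted p = 0.013) and lower in CKD than in NC (-1.54, SE 0.25, adjusted p = 5.9e-05). Loop and distal tubule genes had 0 of 6 called in SZ against CKD and 6 of 6 lower in CKD against NC. Of all genes tested, 4.16% were higher in SZ than in CKD and 26% were lower in CKD than in NC. Under scaling to a fixed FPKM sum 7 of the 10 proximal tubule genes and 3 of the 6 loop and distal tubule genes were lower in CKD than in NC, and 5 of the 10 proximal tubule genes were higher in SZ than in CKD.

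The partners and relatives of the members numbered 32, of which 29 were matched and 19 tested. In CKD against NC 10 were higher and 4 lower, in SZ against NC 8 higher and 3 lower, and in SZ against CKD Lrp2 alone was called, higher. The shares over all genes tested were 24.4% higher and 26% lower, 12.5% and 8.61%, and 4.16% and 6.82% in these 3 comparisons. The median log2 fold changes were 0.59, 0.40 and -0.10 in that order, against -0.040, -0.035 and 0.0055 over all genes. Under scaling to a fixed FPKM sum the counts were 10 higher and 2 lower in CKD against NC, 11 higher and 0 lower in SZ against NC, and 1 higher and 1 lower in SZ against CKD. Over all 13851 genes that scaling called 6591 higher and 1281 lower, 3432 and 266, and 289 and 1702, in the same order. Timd2, the TIM family relative of Havcr1, averaged 60.8 FPKM in SZ, 63.1 in CKD and 21.7 in NC (CKD against NC 1.55, SE 0.17, adjusted p = 1.3e-06; SZ against CKD -0.057, SE 0.17, adjusted p = 0.86). Cd300lf, a phosphatidylserine receptor of myeloid cells, was higher in CKD than in NC (1.24, SE 0.25). Havcr2 was set aside as too low.

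The integrin chains that bind Vcam1 were higher in CKD than in NC: Itga4 by 0.92 (SE 0.26), Itgb1 by 0.59 (SE 0.095) and Itgb7 by 1.59 (SE 0.18), as was the related adhesion gene Icam1 by 1.92 (SE 0.19). None of these 4 passed in SZ against CKD, where the log2 fold changes were -0.10, -0.23, -0.52 and -0.40 and the adjusted p 0.82, 0.12, 0.066 and 0.16. Of the iron genes, the ferroxidase Heph (hephaestin), a relative of Cp, was higher in CKD than in NC (1.15, SE 0.21), as was Tf (transferrin, 1.76, SE 0.33), whereas Tfrc, the transferrin receptor, was lower (-0.86, SE 0.21). Hephl1, Hp and Ltf were set aside as too low. The Lcn2 receptor gene Slc22a17 did not pass in CKD against NC (-0.29, SE 0.14, adjusted p = 0.093), nor did Mmp9, whose protein Lcn2 binds (-0.47, SE 0.29, adjusted p = 0.19), though Mmp9 was lower in SZ than in NC (-0.91, SE 0.29, adjusted p = 0.031).

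Of the small heat shock proteins beside Cryab, Hspb1 was higher in CKD than in NC (0.88, SE 0.34, adjusted p = 0.037), while Hspb2 (-0.078, SE 0.17) and Hspb8 (-0.00034, SE 0.19) did not pass. The co-chaperone Bag3 was lower in CKD (-0.63, SE 0.13) and in SZ (-0.45, SE 0.13) than in NC, and desmin (Des), a filament protein that Cryab protects in muscle, was higher in CKD than in NC (1.44, SE 0.20). Prom2, the relative of Prom1, averaged 2.37 FPKM in SZ, 1.88 in CKD and 4.67 in NC, lower in CKD (-0.96, SE 0.20, adjusted p = 0.00072) and in SZ (-0.71, SE 0.20, adjusted p = 0.019) than in NC. With a fixed FPKM sum, Mmp9, Bag3 and Prom2 were not called in SZ against NC. The 4 partners lower in CKD than in NC as deposited were Lrp2, Tfrc, Bag3 and Prom2. That count was 2 with a fixed FPKM sum and 3 with plain library totals, so not all of these falls held under other scalings. Of the receptors that bind clusterin Vldlr did not pass in CKD against NC (-0.16, SE 0.13) and Lrp8 was set aside. The doublecortin relatives Dcx, Dcdc2b, Dcdc2c and Dcdc5 were set aside, the last 2 listed at 0 in every group mean.

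The genes whose pattern over the 18 libraries was most like that of each of the 6 members called in CKD against NC (not Prom1 or Cryab, which the rule leaves out) were found by the root mean square difference between log2(FPKM + 1) values centred on each gene's own mean. For Havcr1 they were Spp1 (0.75 log2 units), Gpnmb (0.92) and C4b (1.38). A gene near a member by this measure can still differ from it in SZ against CKD. There Spp1, Gpnmb and C4b had log2 fold changes of -0.99, -1.84 and -0.70, against -0.37 for Havcr1. The nearest to Lcn2 were Mmp12 (0.57), Il19 (0.745) and Il1rn (0.746), and to Clu they were Fgb (0.63), C4b (0.65) and Timp1 (0.73). In SZ against CKD, Fgb, C4b and Timp1 stood at 0.25, -0.70 and -1.12, against -0.24 for Clu. Fgb, a fibrinogen chain, stood at 33.6 FPKM in SZ, 24.2 in CKD and 0.698 in NC. Cp was nearest to Cd53 (0.33), C1s (0.34) and Fn1 (0.34). Vcam1 was nearest to Gucy1b1 (0.18), Prrx1 (0.22) and Heph (0.22), and Dcdc2 to Slc25a24 (0.25), Cx3cr1 (0.27) and Flna (0.30). A smaller difference is reached more easily by genes that vary little, so the values rank genes within a member and not between members.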

How the data were processed

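RNA was extracted with Trizol and a TruSeq kit from Illumina served for the libraries, per the labels' protocols. The authors deposited 1 table of FPKM values for 32116 genes. HISAT2 2.0.5 and the build mRatBN7.2 are named in the submitters' processing notes. For the read counter, strand use and annotation no name is given in the sources used here. Whether reads of overlapping and antisense genes were kept apart is therefore not known.

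Multiplied by gene length, FPKM came out as whole steps, 1 step size per library, for 100% of values above 0 (tolerance 0.01), which gave the reads per gene. The sizes behind the deposited FPKM were 1.04 (SZ), 1.14 (CKD) and 0.896 (NC) times the read totals on average, so the deposited scaling differs between groups.

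Genes with FPKM of at least 1 in at least 6 libraries (13851; 18265 were set aside) entered limma (version 3.58.1, R version 4.3.3) on the log2(FPKM + 1) scale. All 3 group means shared 1 model with a mean-variance trend, tests were 2-sided, and p was adjusted by Benjamini-Hochberg across every tested gene. Intervals are 95% and unadjusted. Every single-gene adjusted p comes from this fit unless another setting is named. The fit was tested on simulated data. Alternatives were another pseudocount (0.1), no filter, a mean FPKM of at least 5, other scalings, array weights, robust variance, no trend, an exact rank sum test, a replicate block, voom, a lowess correction for gene length (span 0.3) and leaving out libraries.

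The members, gene lists and tests were chosen with earlier results of these data known. Named genes are the 8 members, the 3 called genes at each end of the other injury list, the tested partners and the 3 nearest genes per member. Genes named beside the marker lists were chosen after their values were seen. Of 161 listed symbols 152 were matched. Neutrophil, macrophage, endothelial, fibroblast, T cell, tubule, podocyte, liver and urothelium lists served as markers, and of the podocyte genes 4 of 4 tested were lower in CKD than in NC and 0 of 4 were called in SZ against CKD. Of 7 collecting duct genes 6 were lower in CKD than in NC and 2 higher in SZ than in CKD. Under scaling to a fixed FPKM sum 3 of the 4 podocyte and 4 of the 7 collecting duct genes were lower in CKD than in NC. In SZ against NC 4 of 4 podocyte genes were lower as deposited and 1 of 4 under that scaling. Promoters came from RefSeq (GRCr8), whose build differs from that of the deposited coordinates.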

Additional observations from a re-analysis of the deposited data

Results flagged for a closer look

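In 3 of the 24 member and group combinations, 1 library stood far from the other 5 by Dixon's ratio of gap to range (limit 0.625). Normally distributed values meet this rule by chance in about 1 of 20 groups. The ratio was taken on FPKM, which stretches high values relative to the log2 scale of the tests. That rate may therefore not hold here, and each of the 3 was the highest library of its group. Lcn2 in SZ 3 was 125 FPKM, with the next SZ library at 53.6. Cryab in SZ 3 was 225 FPKM, with the next at 76.0. SZ 3 is also a library in which values fell with gene length by a slope of -0.25. After a lowess correction for length, SZ 3 stood 0.98 (Lcn2) and 1.66 (Cryab) log2 units above the median of the other SZ libraries. Dcdc2 in CKD 4 was 24.8 FPKM, with the next CKD library at 17.3.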

How the results depend on the processing

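Over 34 alternatives, the members called numbered 6 in CKD against NC in each, 5 or 6 in SZ against NC (Vcam1 being the one lost) and 0 or 1 in SZ against CKD. The 1 was Lcn2 under TPM scaling (a fixed FPKM sum per library), under plain library totals and without SZ 3, CKD 1 or CKD 6, and Cp when only the 2 groups were fitted; leaving out 1 library at a time gave 0 to 1. Of 816 combinations of a member's fold change and an alternative, 796 kept their direction and their side of the threshold, 10 lost a call, 6 gained one and 4 changed sign. The 4 were Prom1 in CKD against NC under TPM scaling (0.058) and Cryab in SZ against CKD with array weights (-0.075), without SZ 3 (-0.24; 0.47 at the other end when single libraries were left out) and without CKD 2, CKD 5 and SZ 3 (-0.15), none of them called; the cause was not tested.

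The background moved more. Genes called in SZ against CKD numbered 1521, against 554 with only the 2 groups fitted, 2830 with array weights, 0 by the exact rank sum test (4014 at an unadjusted p under 0.05 by limma) and 533 to 3058 when single libraries were left out (3058 without SZ 3, 2798 without CKD 1, 1010 without CKD 3, 850 without SZ 2, 831 without SZ 1, 669 without CKD 5 and 533 without SZ 4). CKD against NC fell to 4447 genes at a mean FPKM of at least 5, against 6973, since fewer genes were tested. SZ against NC numbered 2919, against 1627 under that filter and 5492 with array weights. Over all genes the median log2 fold change under TPM scaling was 0.34 (CKD against NC), -0.12 (SZ against CKD) and 0.22 (SZ against NC). As deposited these medians were -0.040, 0.0055 and -0.035.

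Same-numbered libraries of different groups showed little likeness: correlations of their deviations from the group means ran from -0.36 to 0.23. The best match had the same number in 5 of 36 lookups. Whether such libraries shared a processing step was not tested. With the replicate block, 1195 genes and 0 members were called in SZ against CKD, and 6 members in each comparison with NC.

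Depth limits Havcr1 and Lcn2 in NC, where 4 to 33 and 13 to 58 reads per library set their levels.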
